A study of Mus musculus with 20 samples.

Results

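Retinoic acid (RA) and Wnt signals were varied together in a single-cell experiment on mouse embryonic stem cells that had first been directed towards mesendoderm, and the comparison here asks, gene by gene, whether the response to RA differed with the Wnt level. Wells were included when they belonged to this experiment, and cells when the deposited table assigned them to a well and marked the assignment as passed. Of 27146 cells in the 3 single-cell matrices of the series, 12781 came from this experiment, 2899 of those were assigned, and 2633 lay in the 300 wells that held at least 5 assigned cells. The counts of those cells were summed per well, so that a well, not a cell, was the unit of every test.

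The series tagged cells of many differently treated wells with barcodelets, short synthetic RNAs transfected into each well, and then pooled the wells into 1 droplet library per experiment. The cells are a male 129P2/OlaHsd embryonic stem cell line. By the labels, the mesendoderm start was Activin A, Fgf2, GSK3 inhibitor XV, Dorsomorphin and CD 2665 together for 24 h, in medium with 2% serum. The labels of this library describe 5 pathways and 144 conditions, not the design followed here. That every well had this start is therefore uncertain. GSK3 inhibitor XV activates Wnt signalling, Dorsomorphin blocks BMP receptors and CD 2665 is an antagonist of RA receptors. The start that the labels describe thus had Wnt active and RA blocked. For the next 24 h each well had 1 of 128 combinations of 7 signals (RA, Wnt, Tgfb, Bmp, Fgf, Notch and Shh), each at level 1 or level 0, and the tags were transfected 2 to 16 h before harvest. No source used here names the compounds behind level 1 and level 0 in this experiment, and level 0 may mean an inhibitor as well as an absent ligand.

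By RA and Wnt the wells form 4 groups, named below after the signals at level 1. There were 77 wells with neither signal (671 cells), 77 Wnt-only wells (685 cells), 75 RA-only wells (656 cells) and 71 wells with RA and Wnt (621 cells). Every group began as 96 wells over 32 conditions, and each kept wells of 31 or 32 of them. A condition had 4 wells at Tgfb 0 and 2 at Tgfb 1, and 192 and 108 wells of these were kept. The wells kept were not fully balanced for the other signals: Bmp was at 1 in 45 of 77 Wnt-only wells and in 35 of 75 RA-only wells. The model holds all 7 signals, while the medians and means per group are not adjusted for them. The spread within a group includes that between treatments, and its share was not measured. A well held between 27701 and 332644 UMIs (unique molecular identifiers, 1 per captured RNA molecule), with a median of 101097. All wells are of 1 cell line in 1 library, so p-values measure the spread between wells of 1 experiment.

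RA enters cells as a small lipid and binds receptors that sit on DNA as partners of retinoid X receptors, where it switches on genes such as the 3′ members of the Hox clusters and its own degrading enzymes. Wnt ligands stabilise beta-catenin, which joins TCF and LEF factors on DNA and activates feedback inhibitors such as Axin2 and posterior genes such as T and the Cdx genes. In the embryo the tail end is rich in Wnt and Fgf and the trunk makes RA, and the balance between them is known for patterning the streak, the caudal epiblast and the order of Hox expression.

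Both signals acted in these wells. Of 1874 genes with enough counts to test, RA at Wnt 0 raised 176 (9.39%) and lowered 167 (8.91%), 343 in all (18.3%). RA at Wnt 1 raised 132 (7.04%) and lowered 123 (6.56%), 255 in all (13.6%). Wnt changed 468 genes at RA 0 (25%; 13.3% higher and 11.7% lower) and 458 at RA 1 (24.4%; 12.4% higher and 12% lower), more than for RA at either level. Scaling by total UMIs alone, in place of TMM, a factor that corrects for composition, gave 134 higher and 218 lower for RA at Wnt 0, and 188 higher and 297 lower for Wnt at RA 0.

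Axin2, a feedback inhibitor of Wnt, ran from 9.83 to 230.2 CPM (UMIs scaled to a common well total) with a median of 82.4 with neither signal, and from 103 to 596 with a median of 302 in Wnt-only wells. With RA the medians were 80.2 at Wnt 0 and 299 at Wnt 1, so the Wnt rise was about as large at either RA level. On the log2 scale the Wnt effect on Axin2 was 1.55 ± 0.09 (SE) at RA 0 and 1.81 ± 0.10 at RA 1, and the interaction of 0.26 ± 0.13 did not pass (edgeR quasi-likelihood test, adjusted p = 0.254). Nkd1 and Sp5, also Wnt targets, had interactions of 0.03 ± 0.18 and -0.10 ± 0.17. The RA-induced gene Stra8 had a median of 0 in both groups at RA 0, of 59.8 CPM in RA-only wells and of 36.2 CPM with RA and Wnt. Rarb, the RA receptor gene that RA itself induces, was too low to test, with mean levels of 1.03, 1.20, 9.80 and 4.17 CPM in wells with neither signal, Wnt only, RA only and both.

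The interaction is the RA effect at Wnt 1 less the RA effect at Wnt 0, on the log2 scale, from a model that also holds the 7 signals and their 21 pairs. Of the 1874 genes, 91 were called at an adjusted p under 0.05 (4.86%), 49 with a positive interaction (2.61%) and 42 with a negative one (2.24%). Their median absolute size was 0.43. Scaling by total UMIs alone gave 76 positive and 30 negative calls, so the balance between the directions depends on the scaling. A looser filter, a mean of at least 10 CPM over wells, let 7553 genes be tested and called 59 positive (0.781%) and 46 negative (0.609%), 105 in all (1.39%). In that fit RA changed 7.96% of genes at Wnt 0 and 7.31% at Wnt 1 (4.32% higher), and Wnt changed 12.7% at RA 0 (6.62% lower) and 13.3% at RA 1 (6.78% higher and 6.47% lower). Of the 91 genes 51 were called there too. In the 98 wells with at least 10 cells, 8 genes were called, 7 of them among the 91, with Dkk1, Smc6, Cd24a and T among these 7. Values of genes too low for the stricter filter come from this looser fit and are named as such.

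The called genes reached their interaction in several ways. Among the 49 positive genes, 19 fell with RA at Wnt 0 and were not called at Wnt 1, 17 rose with RA at Wnt 1 and were not called at Wnt 0, and 7 fell at both levels. A further 2 rose at both levels, 2 fell at Wnt 0 and rose at Wnt 1, and 2 passed at neither. Among the 42 negative genes, 20 fell with RA at Wnt 1 and were not called at Wnt 0, 12 rose with RA at Wnt 0 and were not called at Wnt 1, and 3 fell at both levels. A further 2 rose at both, 1 rose at Wnt 0 and fell at Wnt 1, and 4 passed at neither. Being called at one level and not at the other is no test of a difference; the interaction is that test.

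**Figure D1:**
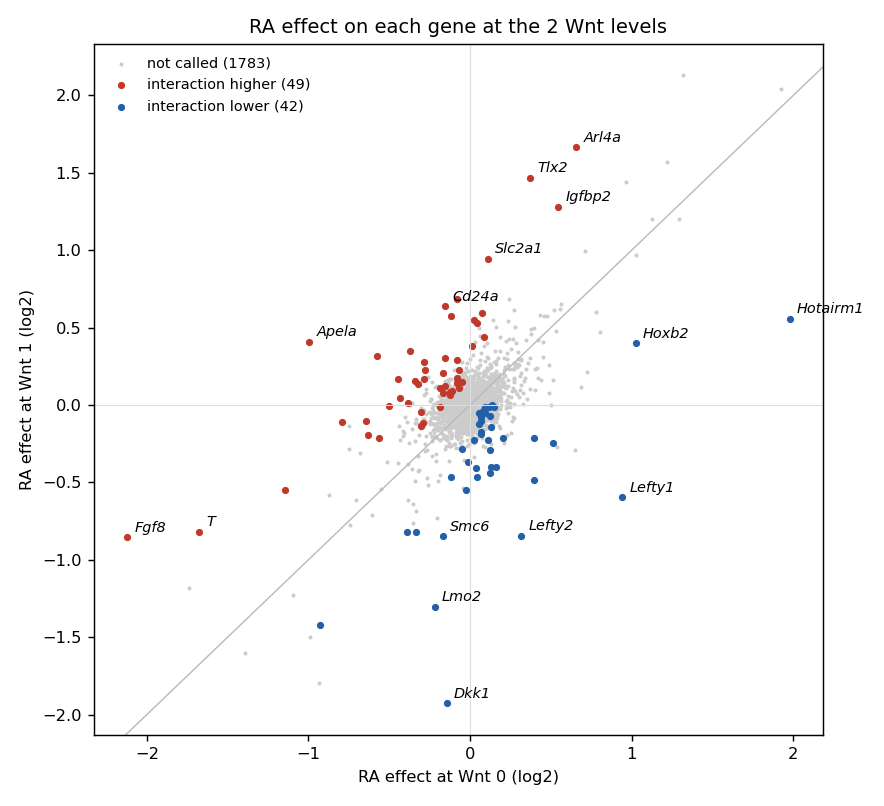
Each point is 1 of the 1874 tested genes, with its RA effect at Wnt 0 on the horizontal axis and at Wnt 1 on the vertical axis (both log2); the diagonal marks equal effects. The 49 genes with a positive interaction (red) lie above the diagonal, Fgf8 and T among genes that fell with RA at both levels, and the 42 with a negative one (blue) lie below it, with Hotairm1 far to the right and Dkk1 far down.

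At the 3′ end of the Hox clusters Hotairm1 and Hoxb1 had a larger RA effect at Wnt 0 than at Wnt 1, Hoxb2 passed in 1 of 2 fits, and the interactions of Hoxb3 and Hoxb4 did not pass. Hotairm1, an antisense RNA of the Hoxa cluster (chr6:52156902-52162119, GRCm38, plus strand), ran from 0 to 154 CPM with a median of 24.0 with neither signal and from 0 to 149.8 CPM with a median of 41.4 in Wnt-only wells. In RA-only wells it ran from 10.7 to 329.6 CPM with a median of 109, and with RA and Wnt from 16.4 to 145 CPM with a median of 69.0. No well at RA 1 was at 0, the RA-only wells were the highest by median, and the 4 groups overlapped. RA raised Hotairm1 by 1.98 ± 0.14 on the log2 scale at Wnt 0 and by 0.56 ± 0.14 at Wnt 1, and the interaction was -1.42 ± 0.19 (edgeR, adjusted p = 2.02e-10). Wnt raised it at RA 0 (0.69 ± 0.16) and lowered it at RA 1 (-0.74 ± 0.12).

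Hoxb1, a Hox gene of the hindbrain, rose with RA at Wnt 0 (0.65 ± 0.21) and had an RA effect of -0.32 ± 0.15 at Wnt 1 that did not pass. Its medians were 12.0 CPM with neither signal, 47.2 with Wnt only, 27.1 with RA only and 38.0 with both, so the highest median was in Wnt-only wells. The interaction of Hoxb1 was -0.97 ± 0.24 (looser fit, edgeR, adjusted p = 0.00591).

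Hoxb2 rose with each signal alone: its medians were 29.0 CPM with neither, 58.7 with Wnt only, 72.8 with RA only and 99.2 with both. The interaction was -0.63 ± 0.19 (edgeR, adjusted p = 0.0247), lost in the looser fit (adjusted p = 0.0528), in cells with at least 100 barcodelet UMIs (0.196) and without replicate number 1, 2 or 4 (0.11, 0.238 and 0.147). Leaving out number 1, 2, 3 or 4 left 196, 205, 248 and 251 of the 300 wells. Whether a call lost this way, here and below, was lost through having fewer wells was not tested. Hoxa5, a gene of the neck and upper trunk, had medians of 6.26, 13.9, 32.3 and 20.5 CPM in the same order of groups, and an interaction of -1.43 ± 0.30 (looser fit, edgeR, adjusted p = 0.00019). Hoxb8 had an interaction of -1.09 ± 0.38 that did not pass (looser fit, edgeR, adjusted p = 0.0583), and Hoxa7 one of 0.49 ± 0.34.

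Along the clusters, 5 of the 12 genes of paralog groups 1 to 4 could be tested in the looser fit, and all 5 had a negative interaction, with 2 called (0.609% of all 7553 genes were called lower) and a median of -0.61, against 0.01 over all genes. Hoxb4 rose with RA by 1.56 at Wnt 0 and by 1.17 at Wnt 1, and its interaction did not pass (edgeR, adjusted p = 0.569). Of groups 5 to 8, 5 of 11 genes could be tested, 1 was called (Hoxa5) and the median was -0.37. Of groups 9 to 13, 4 of 16 could be tested, none was called and the median was 0.02; here Hoxa9 had 1.07 ± 0.46 and Hoxd9 -0.62 ± 0.26, neither of which passed (edgeR, adjusted p = 0.262 and 0.295). RA at Wnt 0 raised all 5 tested genes of groups 1 to 4, where 4.2% of all genes rose, and Wnt at RA 0 raised all 5 as well, where 6.13% did. That the anterior genes differ from the posterior ones was not tested.

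**Figure D2:**
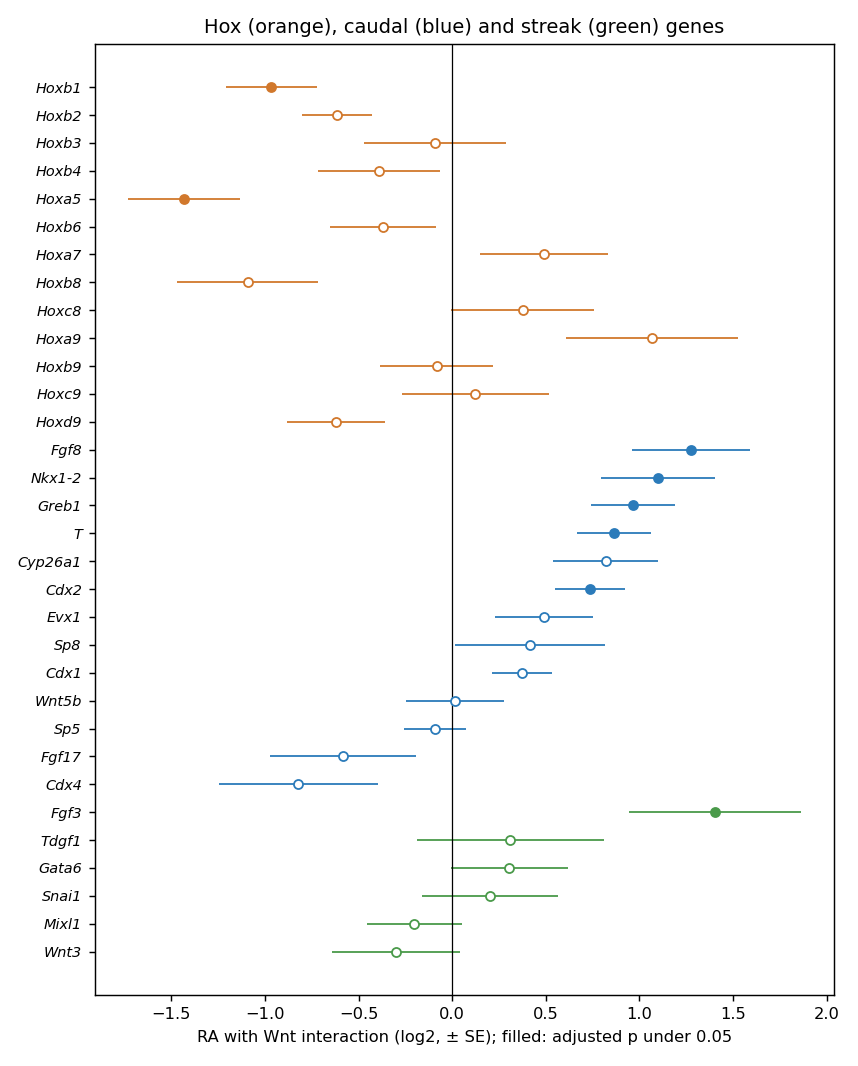
Interaction (log2, with SE bars) of the Hox genes in paralog order (orange), the caudal epiblast list (blue) and other primitive streak genes (green) that reach a mean of 10 CPM, in the looser fit; filled points have an adjusted p under 0.05. The Hox genes of groups 1 to 4 that are shown lie left of 0, and all 6 filled caudal and streak genes, from Fgf3 at 1.40 to Cdx2 at 0.73, lie right of it.

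Other genes of the RA response were mixed in direction. Of the 21 genes on a list of RA targets, 14 could be tested in the looser fit. Of these 4 were called lower, Hoxb1, Stra8 and Meis1 among them, and none higher, against 0.609% lower and 0.781% higher over all 7553 genes. Stra8 and Meis1 reached the filter of that fit only through groups where they were high, so this count is no independent support. The interaction was below 0 for 8 of the 14, with a median of -0.13. In the stricter fit 4 genes of the list could be tested, 1 was below 0, none was called and the median was 0.28. Stra8, a germ cell gene that RA induces strongly, rose with RA by 4.35 ± 0.46 at Wnt 0 and by 2.59 ± 0.37 at Wnt 1, with an interaction of -1.75 ± 0.48 (looser fit, edgeR, adjusted p = 0.00603). Its highest wells held 121 and 134 CPM at RA 0 and 683 and 477 CPM at RA 1, and 58 of 77 wells with neither signal and 48 of 77 Wnt-only wells held none. Mean levels were 5.23 and 9.82 CPM at RA 0 (Wnt 0 and Wnt 1) and 100.5 and 61.6 CPM at RA 1. Stra8 reached the 10 CPM filter only through the wells at RA 1, so its rise with RA and its call are no independent support. Meis1, a partner of Hox proteins on DNA, had 210 UMIs in all RA-only wells against 32, 34 and 56 in wells with neither signal, Wnt only and both, and an interaction of -1.81 ± 0.48 (looser fit, edgeR, adjusted p = 0.00865). Its mean was 10.3 CPM over all wells, and 25.8 CPM in RA-only wells against 4.22, 4.18 and 7.22 in the other groups. Meis1 thus reached the 10 CPM filter only through the RA-only wells, which also set its interaction, so its call is no independent support.

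Cyp26a1, the enzyme that degrades RA, did not follow this order. Its medians were 26.1 CPM with neither signal, 17.8 with Wnt only, 96.2 with RA only and 100.2 with both. RA raised it by 1.32 ± 0.19 at Wnt 0 and by 2.13 ± 0.22 at Wnt 1, and the interaction of 0.81 ± 0.29 did not pass (edgeR, adjusted p = 0.0671), though it did in wells of at least 1 cell (0.0123) and without the other signal pairs in the model (0.0484).

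Among genes of RA synthesis and its receptors, 10 of 17 could be tested in the looser fit, and 2 were called lower, Rdh10 among them, and none higher, against 0.609% lower over all genes, with a median of 0.05. Rdh10, which makes retinaldehyde, the precursor of RA, fell with RA at Wnt 1 (-0.84 ± 0.26) and had an interaction of -1.24 ± 0.37 (looser fit, edgeR, adjusted p = 0.0397).

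The largest negative interaction of the stricter fit was that of Dkk1, a secreted Wnt antagonist that Wnt signalling itself induces. With neither signal Dkk1 ran from 0 to 461 CPM with a median of 51.5, and in RA-only wells from 0 to 317 with a median of 51.5. In Wnt-only wells it ran from 0 to 639.7 CPM with a median of 104, and with RA and Wnt from 0 to 210.3 with a median of 25.3. Wnt-only wells were the highest and the wells with both signals the lowest, although all groups reached 0. Wnt raised Dkk1 by 1.06 ± 0.17 at RA 0 and lowered it at RA 1 (-0.72 ± 0.22), and the interaction was -1.78 ± 0.27 (edgeR, adjusted p = 4.2e-08), which kept its call under all 16 alternative settings.

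Dkk1 was not typical of the Wnt targets in these wells. Of 12 tested genes of a list of 19 Wnt targets, 11 rose with Wnt at RA 0 (where 13.3% of all 1874 genes rose) and 9 rose at RA 1 (12.4%), and 2 had a called interaction, Dkk1 and Tnfrsf19, both negative, against 2.24% lower over all genes. The median interaction of the 12 was 0.02. Tnfrsf19, a receptor of the TNF family, rose with Wnt by 1.25 ± 0.11 at RA 0 and by 0.69 ± 0.11 at RA 1, with medians of 42.2 CPM with neither signal, 114 with Wnt only, 51.1 with RA only and 82.8 with both. Its interaction was -0.56 ± 0.15 (edgeR, adjusted p = 0.0128). Lef1, a factor that carries the Wnt signal to DNA, had -0.35 ± 0.16, and Ccnd2, a cyclin, -0.36 ± 0.12 in the looser fit, and neither passed. Cdx1, which answers to both signals, rose with each: its medians were 41.4 CPM with neither, 189 with Wnt only, 141 with RA only and 551 with both, and its interaction of 0.35 ± 0.16 did not pass (edgeR, adjusted p = 0.216), so on the log2 scale no departure from the sum of the 2 effects was called.

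Dkk1 and Tnfrsf19 are also the called genes, among the RA targets, Wnt targets, Hox and Cdx genes, whose RefSeq promoter window (250 bases before to 50 after the start) holds a TCF/LEF match, and their windows are printed so that the match can be seen. The letters searched were CTTTGAT and CTTTGAA on both strands. The windows are in GRCm38.p6, on the minus strand, at chr19:30549447-30549746 for Dkk1 and chr14:61037938-61038237 for Tnfrsf19, 5′ to 3′ along the gene, with the match in capitals.
Dkk1: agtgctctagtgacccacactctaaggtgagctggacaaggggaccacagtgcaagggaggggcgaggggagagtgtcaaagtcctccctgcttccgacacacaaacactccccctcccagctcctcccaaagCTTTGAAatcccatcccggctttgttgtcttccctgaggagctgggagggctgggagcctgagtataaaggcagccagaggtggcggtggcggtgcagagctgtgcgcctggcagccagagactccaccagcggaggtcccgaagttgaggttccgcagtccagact
Tnfrsf19: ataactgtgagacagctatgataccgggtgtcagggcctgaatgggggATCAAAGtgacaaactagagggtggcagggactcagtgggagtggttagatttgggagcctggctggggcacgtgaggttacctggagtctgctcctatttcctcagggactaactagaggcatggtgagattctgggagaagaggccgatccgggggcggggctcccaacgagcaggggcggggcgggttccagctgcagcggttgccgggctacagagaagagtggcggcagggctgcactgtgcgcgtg
Of the 145 genes called in either fit, 105 had a window, and 11 of those (10.5%) held a match, against 6.88% of the tested genes with a window and 9.88% of all genes with one. DR5 and DR2 are repeats, spaced by 5 or 2 bases, to which RA receptors can bind. The half-site searched on both strands was AGGTCA or its variant AGTTCA, with GGGTCA or else GGTTCA also allowed. No called gene held a DR5 or DR2 match, and 0.0342% and 0.103% of the tested genes did. A match is a stretch of letters, not a measured site.

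Lmo2, a cofactor of blood and endothelial development, changed with Wnt by more than 2 units on the log2 scale at RA 0. It ran from 0 to 159 CPM with a median of 23.5 with neither signal and from 23.4 to 439.9 with a median of 184 with Wnt only. With RA the medians were 18.4 CPM at Wnt 0 and 60.6 at Wnt 1. The Wnt-only wells stood above the others by median, and no well of them was at 0. Wnt raised Lmo2 by 2.51 ± 0.16 at RA 0 and by 1.43 ± 0.19 at RA 1, with an interaction of -1.08 ± 0.25 (edgeR, adjusted p = 0.00128). Smc6, a subunit of a complex that holds chromosomes during repair, had medians of 234, 334, 215 and 198 CPM in wells with neither signal, Wnt only, RA only and both. Its interaction was -0.68 ± 0.10 (edgeR, adjusted p = 1.99e-08), called under all 16 alternative settings.

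**Figure D3:**
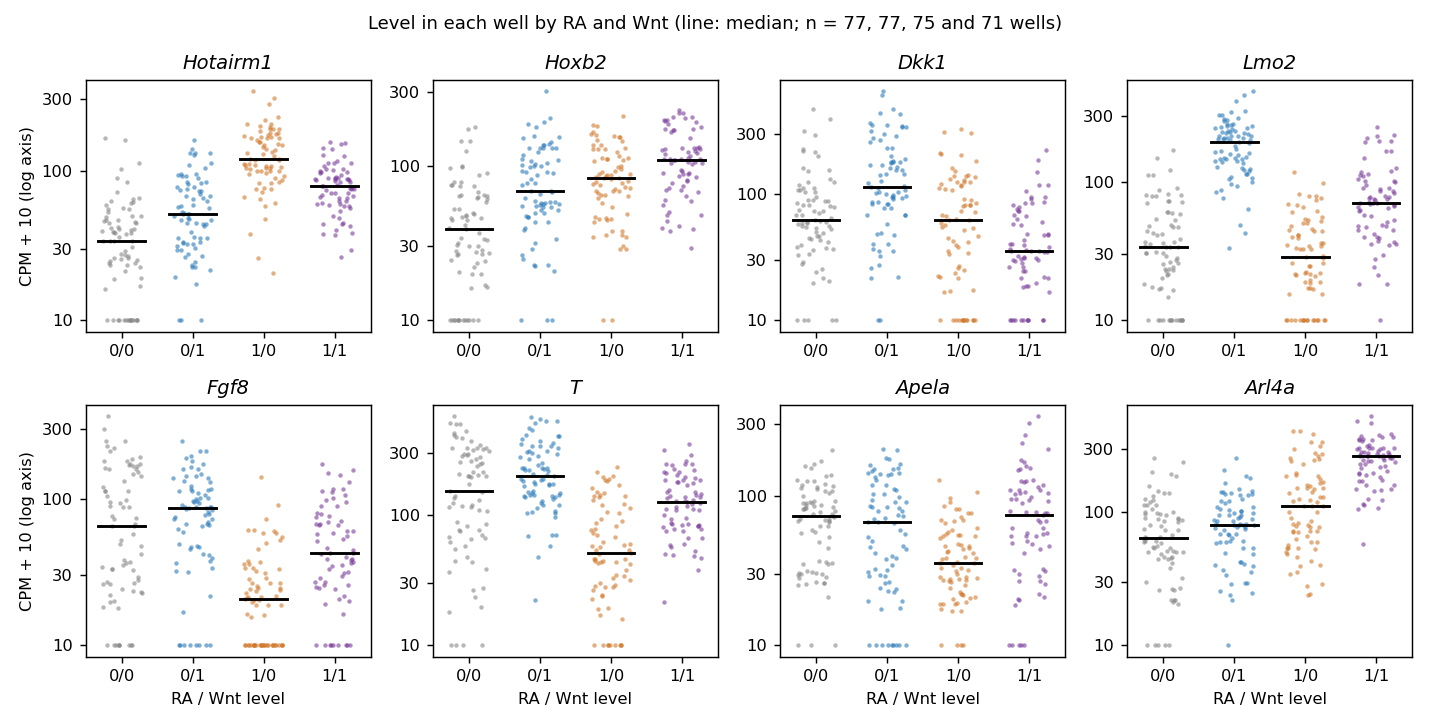
Every point is a well, at its level plus 10 CPM on a log axis, for 8 genes, with the wells grouped by RA and Wnt level (0/0, 0/1, 1/0 and 1/1) and the median as a line. Hotairm1 has its highest median at 1/0, Dkk1 and Lmo2 at 0/1, and Hoxb2 and Arl4a at 1/1, while Fgf8, T and Apela have their lowest at 1/0.

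Fgf8 and T, genes of the primitive streak and caudal epiblast, fell with RA at Wnt 0 by more than at Wnt 1, and other genes of these lists were mixed. Fgf8, the growth factor of the streak and tailbud, had a median of 55.6 CPM with neither signal (from 0 to 354) and of 76.4 with Wnt only (0 to 237). With RA it had a median of 10.7 CPM at Wnt 0 (0 to 131) and of 32.4 at Wnt 1 (0 to 162). The RA-only wells were lowest, 28 of 75 of them at 0, against 8 or 9 wells in each other group. RA changed Fgf8 by -2.12 ± 0.25 at Wnt 0 and by -0.85 ± 0.20 at Wnt 1, both called, and the interaction was 1.27 ± 0.32 (edgeR, adjusted p = 0.00285), lost without replicate number 1 (0.99, adjusted p = 0.188).

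T (brachyury), the T-box factor of the streak and notochord, ran from 0 to 567 CPM with a median of 144 with neither signal and from 12.2 to 561 with a median of 191 with Wnt only. It ran from 0 to 227 CPM with a median of 41.2 with RA only and from 11.5 to 343 with a median of 117 with both. The order of the 4 groups was thus that of Fgf8, and the ranges overlapped widely. RA changed T by -1.67 ± 0.16 at Wnt 0 and by -0.82 ± 0.13 at Wnt 1, with an interaction of 0.86 ± 0.20 (edgeR, adjusted p = 0.00162). The call was lost without the other signal pairs in the model (0.59, adjusted p = 0.0723) and without the wells of replicate number 2 (0.60, adjusted p = 0.209).

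Cdx2, a caudal homeobox gene, had an interaction of 0.72 ± 0.19 (edgeR, adjusted p = 0.00753), lost under the same settings and without replicate number 1, and RA effects of -0.37 ± 0.16 and 0.35 ± 0.13 at Wnt 0 and Wnt 1 that did not pass by themselves. In the looser fit 13 of 17 caudal epiblast genes could be tested, and 5 were called higher (Fgf8, T, Cdx2, Greb1 and Nkx1-2) and none lower, against 0.781% higher over all genes, with a median of 0.49. RA at Wnt 0 lowered 4 of the 13 and raised 2, where 3.76% and 4.2% of all genes fell and rose. Greb1 and Cdx2 were not among those that fell (-0.21 ± 0.17 and -0.38 ± 0.15 in that fit, adjusted p = 0.536 and 0.107). Nkx1-2, a marker of neuromesodermal progenitors, had 1.10 ± 0.30 and Greb1 0.97 ± 0.22, while Cdx4 had -0.82 ± 0.43, which did not pass (adjusted p = 0.406). Of 16 primitive streak genes 10 could be tested, and 3 were called higher (Fgf8, T and Fgf3) and none lower; T and Fgf8 are on both lists. Wnt3 fell with RA at both levels (-0.75 ± 0.24 at Wnt 0 and -1.05 ± 0.27 at Wnt 1), and its interaction of -0.30 ± 0.34 did not pass. Of these 10 genes 8 fell with RA at Wnt 0 and 8 at Wnt 1, where 3.76% and 2.99% of all genes fell.

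Apela, a secreted peptide of the apelin receptor, had the largest positive interaction of the stricter fit, 1.40 ± 0.25 (edgeR, adjusted p = 3.51e-06). Its medians were 63.4 CPM with neither signal, 56.7 with Wnt only, 25.8 with RA only and 63.8 with both, so it was low in RA-only wells and alike by median in the other 3 groups. RA lowered it at Wnt 0 (-0.99 ± 0.20) and its effect at Wnt 1 did not pass (0.41 ± 0.18, adjusted p = 0.122). S100a6, a calcium-binding protein, also fell with RA at Wnt 0 (-0.58 ± 0.15), and its interaction was 0.89 ± 0.20 (edgeR, adjusted p = 0.000833), lost without replicate number 2 (0.103).

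A further set of positive genes rose with RA mostly at Wnt 1. Arl4a, a small GTPase, had medians of 53.5 CPM with neither signal (0 to 246), 70.5 with Wnt only (0 to 245), 101 with RA only (13.8 to 399.5) and 252 with both (47.3 to 513). The wells with both signals were highest, and their lowest well lay below the medians of all other groups. RA raised Arl4a by 0.66 ± 0.14 at Wnt 0 and by 1.66 ± 0.12 at Wnt 1, with an interaction of 1.01 ± 0.18 (edgeR, adjusted p = 1.05e-05). Tlx2, a homeobox gene, had medians of 11.3, 81.3, 12.2 and 211 CPM with neither signal, Wnt only, RA only and both. RA raised Tlx2 at Wnt 1 (1.47 ± 0.16) and its effect at Wnt 0 did not pass (0.37 ± 0.27). The interaction of Tlx2 was 1.10 ± 0.30 (edgeR, adjusted p = 0.0128), lost without replicate number 1 (0.0736) or 2 (0.298) and in cells with at least 100 barcodelet UMIs (0.0551). Igfbp2, which binds insulin-like growth factors, rose with RA by 0.55 ± 0.15 at Wnt 0 and by 1.28 ± 0.14 at Wnt 1, with an interaction of 0.73 ± 0.21 (edgeR, adjusted p = 0.0146), lost without replicate number 1 (0.508).

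Several epithelial genes fell with Wnt, and less so with RA present. Krt18, a keratin of simple epithelia, ran from 12.8 to 1292 CPM with a median of 231 with neither signal and from 0 to 245 with a median of 70.3 with Wnt only, and its medians with RA were 198 at Wnt 0 and 94.0 at Wnt 1. Wnt lowered it by 1.53 on the log2 scale at RA 0 (-1.53 ± 0.15) and by 0.76 at RA 1 (-0.76 ± 0.13), with an interaction of 0.77 ± 0.19 (edgeR, adjusted p = 0.00399), lost without replicate number 2 (0.107) and in cells with at least 100 barcodelet UMIs (0.258). Cd24a, a surface protein of epithelial and progenitor cells, had 0.79 ± 0.13 (adjusted p = 4.07e-07, called under all 16 settings), and Epcam, an epithelial adhesion protein, 0.52 ± 0.15 (adjusted p = 0.0191). Slc2a1, the main glucose transporter of embryonic cells, had medians of 115 CPM with neither signal, 49.9 with Wnt only, 115 with RA only and 102 with both, so the Wnt-only wells stood low; its interaction was 0.84 ± 0.18 (edgeR, adjusted p = 0.000388). Of 14 surface ectoderm and trophoblast genes 7 could be tested in the looser fit, and 3 were called higher (Krt18, Krt19 and Tfap2c) and none lower, against 0.781% higher over all genes. The summed level of that list was 970 ± 638 CPM (SD over wells) with neither signal, 290 ± 133 with Wnt only, 618 ± 325 with RA only and 352 ± 166 with both. In sums over the cells of a well, fewer cells of a type and less RNA per cell cannot be told apart, and this holds for every level given here.

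Genes of the Nodal and BMP pathways were among the negative calls. Lefty1 and Lefty2, which Nodal signalling induces and which block Nodal, had interactions of -1.54 ± 0.31 and -1.16 ± 0.29 (edgeR, adjusted p = 8.45e-05 and 0.00288). Lefty1 ran from 0 to 622 CPM with a median of 34.7 with neither signal, from 0 to 671 with a median of 17.1 with Wnt only, from 0 to 2494 with a median of 54.4 with RA only and from 0 to 699 with a median of 19.0 with both. Each group held wells at 0 and wells far above its median. DESeq2, a second count model, called neither gene (adjusted p = 0.0577 and 0.125), and Lefty2 was also lost without replicate number 1 (0.289). Among 7 tested Nodal and Activin targets of the looser fit, these 2 were called lower and none higher, against 0.609% lower over all genes. Id2, a target of BMP that blocks helix-loop-helix factors, rose with RA at Wnt 0 (0.52 ± 0.12) and had an interaction of -0.76 ± 0.16 (edgeR, adjusted p = 0.000388). Msx2, a homeobox target of BMP, had -0.56 in the stricter fit (adjusted p = 0.0386), which it lost in the looser one (0.082). These 2 were the calls among 8 BMP targets tested in the stricter fit, against 2.24% lower over all genes, with a median of -0.10 and none higher. In the looser fit 1 of 11 was called lower. Trap1a, an X-linked gene of embryonic cells, had -0.61 ± 0.19 (adjusted p = 0.0348), lost in the looser fit (0.0751) and without replicate number 1 (0.136) or 4 (0.285).

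Genes of protein synthesis had small negative interactions. Of 93 ribosomal protein genes 91 were below 0, 7 were called lower and none higher, against 2.24% lower over all genes, and the median was -0.07. Under scaling by total UMIs 79 of the 93 were below 0 and 3 were called, and in the looser fit none of 103 was. The share of UMIs from these genes was 31.3%, 32.7%, 32.0% and 32.5% in wells with neither signal, Wnt only, RA only and both, and its interaction had a permutation p of 0.0367 (adjusted p = 0.0611 over 5 well measures, 100000 resamples). Genes of the mitochondrial genome, whose share is often read as a sign of RNA quality, moved with them: 10 of 11 were below 0, 2 were called lower and none higher, and the median was -0.10. Their share of UMIs was 4.78%, 4.67%, 4.92% and 4.61% in the same groups, and its interaction had a permutation p of 0.0334 (adjusted p = 0.0611). The number of UMIs per cell did move with the groups: it was 12784 ± 2145 (SD over wells) with neither signal, 11629 ± 1814 with Wnt only, 12592 ± 2123 with RA only and 12916 ± 1839 with both. The Wnt-only wells had the fewest, and the interaction of 1479 UMIs passed (permutation test, 2-sided, adjusted p = 0.00695). Its part in the results above was not tested. Cells per well did not differ beyond their spread (adjusted p = 0.719). Of the 30 barcodelets, 5 were used only in wells at RA 1 and 5 only at RA 0, so for these the tag and RA cannot be told apart.

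The labelled state was checked against markers. T, Mixl1, Epcam and Pou5f1 were present, with means over the 300 wells of 150.4, 107, 107 and 67.7 CPM. Other genes of the streak and endoderm lists were low. Eomes had a mean of 9.74 CPM and was at 0 in 189 wells. Gsc, Lhx1, Mesp1 and Cer1 had means of 8.03, 8.03, 2.57 and 0.60 CPM. Foxa2 and Sox17, of endoderm, were at 0 in 168 and 121 wells. Their interactions of -0.02 ± 0.48 and 0.74 ± 0.43 did not pass (looser fit, edgeR, adjusted p = 0.991 and 0.503). Some genes that define other cells were at or near 0: Sox1 and Pax6 (neural) were at 0 in 294 and 295 wells, Lum (fibroblast) in 296, Msgn1 (presomitic mesoderm) in 299 and Hbb-bh1 (embryonic globin) in 299. Others were present. Hand1, of extraembryonic and lateral mesoderm, had a mean of 42.2 CPM, and the fibroblast genes Tagln, Col1a1 and Col1a2 had 45.1, 17.0 and 10.3 CPM. Of visceral endoderm, Apoe had 143 CPM, Dab2 50.7 and Cubn 26.4, while Afp was at 0 in 295 wells. The 13 visceral endoderm genes summed to 510 ± 387 CPM (SD over wells) with neither signal, 431 ± 277 with Wnt only, 618 ± 297 with RA only and 408 ± 201 with both. In the looser fit 5 of them could be tested, all 5 had a negative interaction with a median of -1.09, and none was called. The 12 fibroblast genes summed to 120 ± 108, 90.7 ± 63.2, 110 ± 103 and 68.5 ± 70.0 CPM in the same groups. The part of these cells in the results was not tested.

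The interaction was then tested for its dependence on each of the other 5 signals. No gene passed for Tgfb, Notch or Shh, with 130, 103 and 115 of 1874 genes at an unadjusted p under 0.05. For Bmp 2 genes passed (0.107%), and for Fgf 4 (0.213%), with 177 and 262 of the 1874 genes at an unadjusted p under 0.05. Slc2a1 had the larger dependence on Bmp, 1.49 ± 0.34 (edgeR, adjusted p = 0.0186). At Bmp 1 its mean was 206 ± 133 CPM (SD) with neither signal (n = 42 wells), 68.8 ± 41.9 with Wnt only (45), 98.4 ± 57.1 with RA only (35) and 108 ± 47.4 with both (35). At Bmp 0 the means were 82.8 ± 51.4, 60.0 ± 43.2, 180.4 ± 101 and 125 ± 74.1 CPM in the same order. Wells with neither signal were the highest at Bmp 1 and the RA-only wells at Bmp 0, and the Wnt-only wells the lowest at both. Lgals1, a galactose-binding lectin, was the other gene (0.99 ± 0.22, adjusted p = 0.0186). With at least 10 cells per well, neither call remained.

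The interaction of RA with Wnt was also measured in the other single-cell experiments, by the signal levels given for each. In the wells of the mixed experiment that also began as mesendoderm (64 wells), no gene differed in its interaction at an adjusted p under 0.05 (edgeR joint fit of 1874 genes; 118 at an unadjusted p under 0.05), and the looser filter gave 3. Of the 91 genes called here, 75 (82.4%) had the same sign there, against 62.9% of the other genes, and in that joint fit 5.87% of genes were called here. Of the 91, 17 were called there with the same sign and none with the opposite one; 1.71% of all genes were called there. Hotairm1 had -1.90 ± 0.25 there, Hoxb2 -1.86 ± 0.25, Dkk1 -1.63 ± 0.41, Lmo2 -1.49 ± 0.38 and Arl4a 0.93 ± 0.19. Others were near 0: Apela had 0.05 ± 0.22 there, Fgf8 0.19 ± 0.40 and Id2 -0.06 ± 0.19. T had -0.38 ± 0.31 there, and its difference of 1.27 ± 0.37 did not pass (adjusted p = 0.28). The Wnt targets Lef1 and Nkd1, not called here, had -0.84 ± 0.19 and -0.84 ± 0.25 there, both called (edgeR joint fit, adjusted p = 0.00217 and 0.0375). Their differences from here did not pass (adjusted p = 0.776 and 0.377). Sp5 had -0.65 ± 0.25 and Axin2 -0.04 ± 0.18 there, and neither passed.

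In the germ layer experiment 32 conditions, without replicate populations, were given to cells without the mesendoderm step. There 12 genes differed in their interaction (0.64%), 11 of them higher in the mesendoderm wells, and the joint fit called 5.76% of genes here. Fgf8 had 1.32 ± 0.34 here in the joint fit and -0.93 ± 0.40 there, a difference of 2.25 ± 0.52 (edgeR, adjusted p = 0.0052). T had 0.90 ± 0.21 here and -0.61 ± 0.33 there, a difference of 1.51 ± 0.39 (adjusted p = 0.027). Cdx2 had 0.73 ± 0.20 and -0.77 ± 0.27, a difference of 1.50 ± 0.33 (adjusted p = 0.00419). These 3 caudal genes are given because their difference passed, and none of the 3 interactions in the germ layer experiment passed by itself. Cdx1 had 0.38 ± 0.30 there and 0.36 ± 0.17 here. In the mesendoderm-start wells of the mixed experiment T had -0.38 ± 0.31, Cdx2 -0.15 ± 0.22 and Fgf8 0.19 ± 0.40, and none of the 3 passed there. The part of the mesendoderm step in these differences was not tested. Crabp1, an RA-binding protein, had 0.12 ± 0.28 here and -1.96 ± 0.32 there, a difference of 2.08 ± 0.43 (adjusted p = 0.00244). Of the 91 genes 68 (74.7%) had the same sign in the germ layer experiment, against 59.1% of the other genes. There 6 were called with the same sign and none with the opposite one, where 1.07% of all genes were called. Hotairm1 had -1.28 ± 0.21 there, Hoxb2 -1.29 ± 0.31, Arl4a 1.45 ± 0.22 and Apela 1.34 ± 0.31. Dkk1 (-0.77 ± 0.32) and Lmo2 (-0.75 ± 0.60) did not pass there. The experiments are separate libraries with 111 and 151 cell barcodes shared with this one, and differ in depth: wells of the mixed experiment and conditions of the germ layer experiment held medians of 685683 and 2229210 UMIs. Experiment, library and depth cannot be told apart, and whether level 1 and level 0 meant the same compounds in each experiment is not known here.

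**Figure D4:**
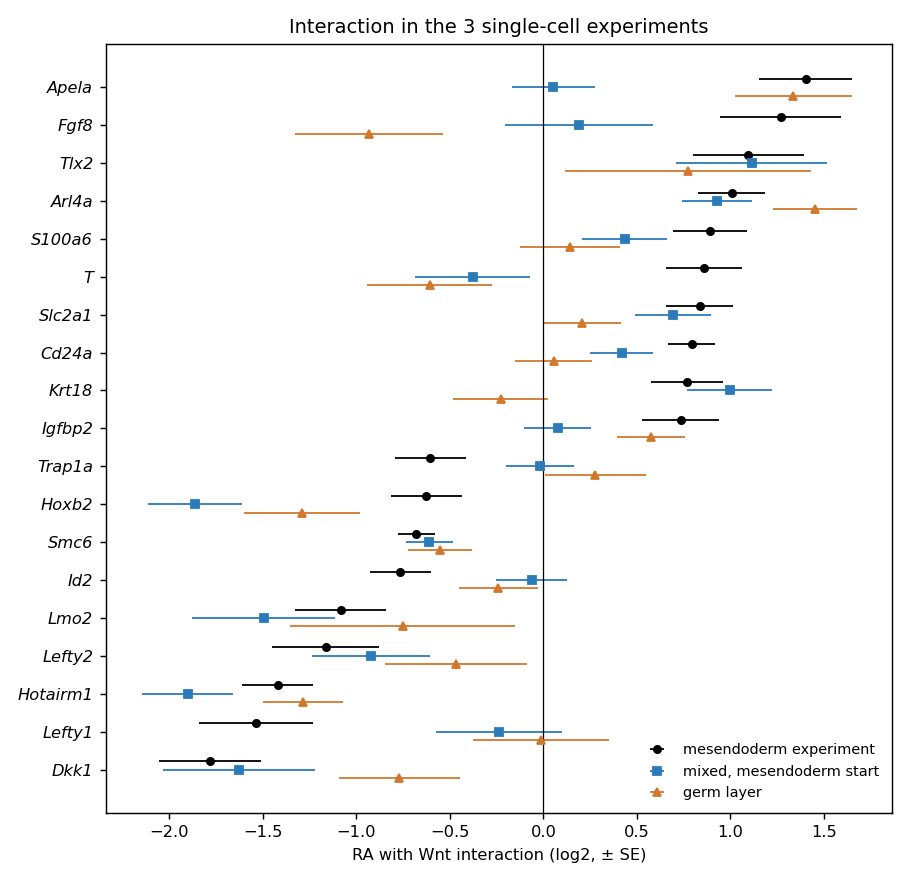
Interaction of RA with Wnt (log2, with SE bars) for genes named by size, in the mesendoderm experiment (black circles), in the mesendoderm-start wells of the mixed experiment (blue squares) and in the germ layer experiment (orange triangles). Hotairm1, Hoxb2, Smc6 and Arl4a lie on the same side of 0 in all 3, while T and Fgf8 lie right of 0 here and left of it in the germ layer experiment.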

How the data were processed

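The authors deposited raw UMI counts per gene and cell of 3 droplet libraries, with barcodelet counts and the fraction of a cell's barcodelet UMIs in its top barcodelets, per the file headers, and tables that assign cells to wells and wells to signals; the counts were not normalised. Per the submitters' processing notes the tools were HTSeq 0.9.1, STAR 2.5.2b and Cell Ranger 1.3.1 and the build mm10, with no role or order. No source used here says how cells were matched to wells; deposited assignments marked as passed were used as they stand. The labels describe the mesendoderm library with 5 pathways and 144 conditions, whereas its deposited design table has 7 signals, 128 conditions and 384 wells, which was followed. No doublet caller was run.

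Counts were summed per well (at least 5 cells) and fitted with edgeR 4.0.16 in R 4.3.3: filterByExpr over the 4 groups, TMM, quasi-likelihood test, 2-sided, Benjamini-Hochberg over all genes tested, threshold 0.05. Signals were coded 0.5 and -0.5, with all 21 pairs as terms. SE are from the fitted information and quasi-dispersion. CPM are scaled to the effective well total (total UMIs times the TMM factor). Well measures were compared by permutation test (100000 resamples). Alternatives were other scalings, filters, cell minimums, models and DESeq2 1.42.0, and leaving out each replicate number; one, cells with at least 100 barcodelet UMIs, was chosen after seeing the data. The procedure was tested on simulated data.

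Named genes were the 10 largest interactions each way among called genes with a mean of at least 10 CPM, without unnamed, mitochondrial and ribosomal protein genes, the list members with the smallest adjusted p, and 14 checks of the signals. Other called genes were named after their values were seen, and some genes are not reported here. The genes, groups and 30 lists (391 genes) were chosen with earlier results of these data known. Gene positions are from GENCODE vM21 (GRCm38), which held 27645 of 27998 gene IDs, and promoters from RefSeq. Genes that overlap another annotated gene, among them Hotairm1, Hoxa5, Hoxb2, Slc2a1, Lmo2, Meis1, Apela, Trap1a, Tnfrsf19, Axin2 and Greb1, have uncertain counts where strand use is unknown.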

Additional observations from a re-analysis of the deposited data

Results flagged for a closer look

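The genes below were picked out because a test of the difference itself passed (edgeR quasi-likelihood test, adjusted p under 0.05 over 1874 genes), either between the levels of another signal or between experiments. The interaction of RA with Wnt depended on Bmp for Lgals1 (0.99 on the log2 scale) and Slc2a1 (1.49). It depended on Fgf for Mif (-0.45), a cytokine, and for 3 ribosomal protein genes, Rpl15 (0.46), Rpl22l1 (0.49) and Rps27a (0.31). At Fgf 0 the mean of Rpl22l1 was 5443 CPM with neither signal, 6353 with Wnt only, 6213 with RA only and 5466 with both, and at Fgf 1 it was 5849, 6038, 5670 and 6111 CPM. The interaction in the share of UMIs from ribosomal protein genes had a permutation p of 0.0367 and did not pass (adjusted p = 0.0611); its part in these results was not tested.

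Against the germ layer experiment the interaction was higher for Fgf8 (2.25), Crabp1 (2.08), Cdkn1c (1.65), T (1.51), Zfp703 (1.51), Cdx2 (1.50), Vim (1.43), Meg3 (1.06), Hmga2 (1.01), Psme2 (0.94) and Cyb5a (0.66), and lower for 2810474O19Rik (-0.86). Of these 12 genes 7 were also called in the mesendoderm wells alone, where 4.86% of all 1874 genes were. Both tests use the same mesendoderm wells, so this overlap is no independent support. Vim, the intermediate filament of mesenchymal cells, had -1.05 ± 0.26 in the germ layer experiment and 0.37 ± 0.19 in the mesendoderm wells. Zfp703, a zinc finger protein, had -1.45 ± 0.29 and 0.06 ± 0.18. Against the mesendoderm-start wells of the mixed experiment no gene passed (edgeR, 118 genes at an unadjusted p under 0.05).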

How the results depend on the processing

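Of the 91 genes called for the interaction, none of those tested changed sign under any of 16 alternative settings. With RLE size factors 91 were also called, with DESeq2 87, with total UMIs 79, with summed conditions 56, in cells with at least 100 barcodelet UMIs 55, with a mean of at least 10 CPM 51, and in wells of at least 10 cells (98 wells) 7. The 24 named called genes gave 329 values, of which 288 kept their call and 41 lost it, with no change of direction. Nkd1, not called, went below 0 with at least 1 cell per well (-0.12), with no other pairs (-0.013) and without replicate number 2 (its range without 1 number was -0.090 to 0.131), and Sp5 above 0 in cells with at least 100 barcodelet UMIs (0.0017). With no filter Cyp26a1 (adjusted p = 0.000148, edgeR) and Cdx1 (0.0337) passed.

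Counts moved by over 1.5 times as follows. Interaction calls were 260 with no filter on low counts (137 higher, 123 lower), 151 with at least 1 cell per well (74 and 77), and 8 with at least 10 cells (4 and 4); total UMIs gave 76 higher. Without 1 replicate number, which left 196 to 251 of the 300 wells, they ranged from 29 to 61 (16 to 34 higher, 13 to 28 lower). For RA at Wnt 0 (343 calls) there were 864 with no filter, 601 with a mean of at least 10 CPM, 54 with at least 10 cells and 195 in cells with at least 100 barcodelet UMIs. For RA at Wnt 1 (255) there were 928, 552 and 86 under the first 3 of these. For Wnt at RA 0 (468) there were 1429, 963 and 134. For Wnt at RA 1 (458) there were 1347, 1001 and 139, and 694 with summed conditions. Without 1 replicate number these ranged over 169 to 287, 159 to 207, 324 to 416 and 263 to 446. Dependence on Bmp gave 4 genes at a mean of 10 CPM and 0 with at least 10 cells, on Fgf 1 and 0, and on Notch 1 and 1. Against the mixed experiment the 10 CPM filter gave 3 genes; against the germ layer experiment it gave 25, and wells of at least 10 cells gave 2. Apart from the scaling, these settings change which wells or genes are tested; beyond that the cause was not tested.

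The design table numbers the wells of a condition, without saying that a number marks a plate or day. Wells of the same number in different groups deviated together no more than others (median r = -0.02 over 24 pairs, 0.01 over 72 pairs of different numbers), so the number is not taken as a pairing. A replicate block gave 92 interaction calls, 89 of them among the 91, and 335, 251, 472 and 462 calls for RA at Wnt 0, RA at Wnt 1, Wnt at RA 0 and Wnt at RA 1.

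With a median of 8 cells per well, 7553 of the genes reached 10 CPM and 1874 passed the stricter filter. Without a filter 18974 genes were tested, and calls among genes below these levels rest on few UMIs. For a gene not called there, no difference was detected, and whether greater depth would show a difference was not tested.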

Other observations

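Of 18 definitive endoderm genes 8 were tested in the looser fit, and 2 were called higher (Krt19 and Epcam) and none lower, with a median of 0.57. Over all genes 0.781% were called higher. Krt19 is also on the surface ectoderm and trophoblast list, and Foxa2 and Sox17 did not pass. Other lists not described above held few called interactions. None of the tested genes of general pluripotency (12 tested), neural ectoderm (3), FGF and ERK targets (9), Notch targets (3), Hedgehog targets (4), S phase (14), G2 and mitosis (14), paraxial mesoderm (3), visceral endoderm (5), fibroblasts (4) or the secreted and surface parts of the Wnt pathway (10) passed in the looser fit (edgeR). Some members did change with RA: Rspo3, which amplifies Wnt signals, fell with RA by 1.75 on the log2 scale at Wnt 0 and by 1.18 at Wnt 1 in that fit. Pou5f1, the pluripotency factor, fell with RA by 0.88 at Wnt 0 and by 0.58 at Wnt 1. Of the stress list 14 genes were tested, and Gadd45g was called lower (-1.38 ± 0.28, adjusted p = 0.000313) and Atf3 higher (1.26 ± 0.40, adjusted p = 0.0453). Gadd45g, a growth arrest gene, had medians of 13.4, 88.0, 27.6 and 46.6 CPM in wells with neither signal, Wnt only, RA only and both.

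An interferon-induced gene was concentrated in few wells. Cxcl10, a chemokine, had 373 UMIs in wells with neither signal, 3 in Wnt-only wells, 15 in RA-only wells and 27 in wells with both. Its interaction was the largest called in the looser fit, 4.21 ± 1.75 (edgeR, adjusted p = 0.000361), and Cxcl10 was too low for the stricter one. The SE is wide, and the p-value comes from the quasi-likelihood test and not from this SE. Cxcl10 reached a mean of 10 CPM only through the wells with neither signal, which also set its interaction, so the call is no independent support. With neither signal 49 of 77 wells held none and 1 well reached 1309 CPM. The summed level of 14 interferon genes was 197 ± 314 CPM (SD) with neither signal, 44.8 ± 39.0 with Wnt only, 95.5 ± 88.3 with RA only and 53.5 ± 47.5 with both, and ran up to 1749 CPM in a well with neither signal.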
